A study of Mus musculus with 18 samples.

Results

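The complement genes described here are 9 named members of the mouse complement system: the C1q chains C1qa, C1qb and C1qc, the proteins C3, C4b and Cfb, the inhibitor Serping1, and the anaphylatoxin receptors C3ar1 and C5ar1. They were chosen by name, were found by symbol among the 30583 genes in the deposited tables, and all 9 were among the 16311 genes with enough counts to be tested. RNA was sequenced from the myocardium of 18 male C57BL/6JR mice aged 12 weeks, 3 mice in each of 6 groups and 1 library per mouse. In 5 groups the left anterior descending coronary artery was tied under pentobarbital to cause a myocardial infarction, and tissue was taken under isoflurane after 10 min or after 1, 6, 24 or 72 hours (h). The sham group (0 h) went through the operation with a suture passed and left untied. The series, by its title, asks how gene expression changes as an infarction progresses.

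Complement is a cascade of proteins that tags and attacks targets and calls in immune cells. C1q binds antibodies, pentraxins and dying cells and starts the classical pathway, whose proteases cut C4 and then C3. Factor B extends C3 cleavage through the alternative pathway, C1 inhibitor blocks the first proteases, and the small fragments released from C3 and C5 act on C3ar1 and C5ar1, which are carried mainly by myeloid cells. The liver makes most circulating complement, while C1q is known mainly as a product of tissue macrophages.

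All 9 genes lie on the minus strand in GENCODE M21 (mouse build GRCm38, also called mm10). The C1q chains are neighbours on chromosome 4, with C1qb at chr4:136880129-136886187, C1qc at chr4:136889804-136893065 and C1qa at chr4:136895917-136898803. On chromosome 17 lie C4b at chr17:34728380-34743882, Cfb at chr17:34856374-34862518 and C3 at chr17:57203970-57228136. Serping1 is at chr2:84765387-84775444, C3ar1 at chr6:122847138-122856161 and C5ar1 at chr7:16246743-16259540. A RefSeq promoter window (GRCm38.p6, 250 bases before to 50 after the RefSeq start of the gene) was matched for 5 of the 9 genes: C1qb, C1qc, C3, C3ar1 and C5ar1. The RefSeq start can differ from the GENCODE end given above. For C1qc, C5ar1 and, by a few bases only, C3ar1 it lies inside the GENCODE span, so bases before it can lie in that span too. The 4 windows below are shown because they cover C1q, C3 and both receptors and hold all the motif matches found in the 5. They are written 5′ to 3′ on the strand of the gene, and capitals mark the matches. The windows are chr4:136892865-136893164 for C1qc, chr17:57228087-57228386 for C3, chr6:122856108-122856407 for C3ar1 and chr7:16259289-16259588 for C5ar1.
C1qc: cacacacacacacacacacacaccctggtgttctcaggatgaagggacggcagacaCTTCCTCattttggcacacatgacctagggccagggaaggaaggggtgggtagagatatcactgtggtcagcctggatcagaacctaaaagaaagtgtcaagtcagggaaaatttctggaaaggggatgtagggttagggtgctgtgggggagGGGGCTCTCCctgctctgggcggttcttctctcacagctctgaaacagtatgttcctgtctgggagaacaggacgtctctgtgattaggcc
C3: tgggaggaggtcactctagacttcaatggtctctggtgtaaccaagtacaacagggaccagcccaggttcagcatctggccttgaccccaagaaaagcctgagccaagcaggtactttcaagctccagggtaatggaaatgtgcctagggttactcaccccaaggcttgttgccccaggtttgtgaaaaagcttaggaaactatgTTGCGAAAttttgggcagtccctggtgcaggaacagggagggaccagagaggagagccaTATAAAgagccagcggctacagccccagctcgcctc
C3ar1: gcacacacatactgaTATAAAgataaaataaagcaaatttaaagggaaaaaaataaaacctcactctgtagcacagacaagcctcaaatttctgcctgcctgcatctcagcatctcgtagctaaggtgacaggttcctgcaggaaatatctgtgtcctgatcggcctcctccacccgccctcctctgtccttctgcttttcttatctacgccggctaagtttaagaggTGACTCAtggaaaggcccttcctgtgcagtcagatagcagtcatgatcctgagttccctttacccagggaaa
C5ar1: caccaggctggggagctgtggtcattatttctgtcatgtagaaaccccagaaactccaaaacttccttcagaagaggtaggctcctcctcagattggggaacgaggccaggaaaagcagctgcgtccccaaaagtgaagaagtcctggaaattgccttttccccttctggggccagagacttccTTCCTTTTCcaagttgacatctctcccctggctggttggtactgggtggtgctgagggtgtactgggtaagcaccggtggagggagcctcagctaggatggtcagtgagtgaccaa

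In all, 7 motifs were searched on both strands, and each share below is over all 32851 RefSeq windows of this length. The C1qc window held an ETS motif of the PU.1 kind (GAGGAAG, read on the other strand, in 13.6% of windows) and a match to the NF-kB motif (8.46%). The C3 window held a C/EBP motif (TTGCNNAA, 10.8%) 45 bases before the start and TATAAA (13.6%) 14 bases after it. In C3ar1, TATAAA stood 235 bases before the start and an AP-1 motif (TGANTCA, 7.81%) 22 bases before it. The C5ar1 window held the core of an interferon-stimulated response element (GAAANNGAA, read on the other strand, 8.56%). It stood 66 bases before the RefSeq start, inside the GENCODE span of the gene. None of the 5 windows held the STAT motif TTCNNNGAA (8.3%), and the C1qb window held none of the motifs searched. These are matches of letters and were not tested for binding.

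The libraries held 18.2 to 25.1 M counts (M stands for mega). Levels are given as TMM-scaled CPM (counts per mega counts after the TMM correction for library composition), and a gene was called when its edgeR p-value, adjusted over all genes tested, was under 0.05. The labels name both myocardial tissue and, as a cell type, cardiomyocytes. Summed over 6 cardiomyocyte markers, levels ran from 45100 to 49900 CPM in sham and from 10800 to 14400 CPM at 72 h, but 8 of 8 macrophage and monocyte markers, 7 of 7 fibroblast markers and 5 of 5 endothelial markers also had counts in every group. The libraries are therefore described as tissue, in which more cells of a type and more RNA per cell cannot be told apart. Replicate 1 at 6 h and replicate 3 at 24 h stood apart by the highest neutrophil marker sums, 757 and 663 CPM, and results that rest on them are given without them as well. Replicate 1 at 6 h also had the highest sum of its group for 4 atrial markers (Myl7, Sln, Nppa and Myl4), 541 CPM against 114 and 286. That sum was 91.2 to 207 in sham, 562 to 809 at 24 h and 571 to 648 at 72 h. Of 3 atrial markers tested, 2 were called higher than sham at 6 h, and 1 at 24 h and at 72 h. Of all genes, 16.3%, 23.7% and 34.2% were called higher at these times. The part of atrial tissue in the results was not tested. Mitochondrial genes took from 22.29% to 27.38% of the counts in the sham, 10 min, 1 h and 6 h libraries, and from 8.41% to 10.53% at 72 h.

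Complement transcripts did not pass the test in the first hour, changed in a divided way at 6 h and 24 h, and were all higher at 72 h. At 10 min and at 1 h, 0 of 9 members were called against sham, with 0 at an unadjusted p under 0.05 and 0 by DESeq2 or by limma. Of all genes tested, 0.0736% were called at 10 min and 0.294% at 1 h. At 6 h, 4 of 9 were higher (C3, C4b, C3ar1 and C5ar1) and none lower, where 16.3% of all genes were called higher and 12.2% lower. At 24 h, 4 were higher (C1qb, C4b, C3ar1 and C5ar1) against 23.7% of all genes, and 1 was lower (Serping1) against 20.2%.

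At 72 h all 9 were called higher, where 34.2% of all genes were called higher and 32.2% lower. For each of the 9, every 72 h library lay above every sham library, which held for 39.2% of all genes. The median log2 fold change of the 9 was -0.07 at 10 min, 0.01 at 1 h, then 0.53, 0.48 and 2.93 at 6, 24 and 72 h, while the median of all genes tested stayed between -0.01 and 0.03. Tested over all 5 times together, 9 of 9 differed from sham, as did 78.4% of all genes. All comparisons with a time point against sham share the same 3 sham libraries.

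**Figure D1:**
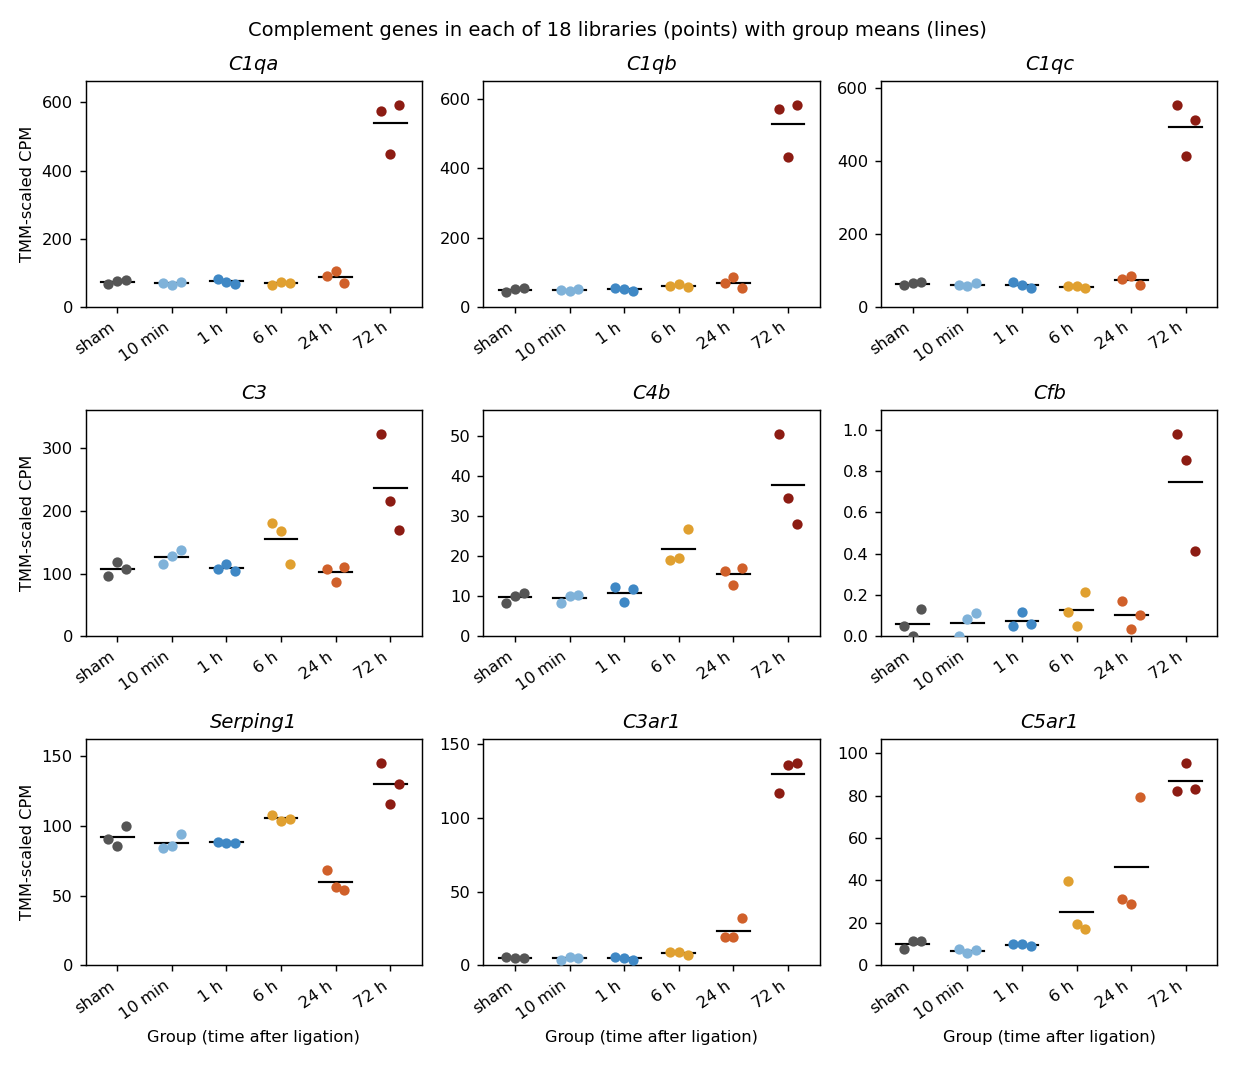
Level of each of the 9 complement genes in every library, as TMM-scaled CPM on a linear axis from 0, by group; points are single mice (3 per group) and lines are group means. The C1q chains stay near their sham level until 24 h and stand far above it at 72 h, Serping1 is lowest at 24 h, and 1 library at 6 h and 1 at 24 h stand apart for C5ar1.

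From one time to the next, the calls came late. Between 10 min and 1 h, 0 of 9 were called, with 0 at an unadjusted p under 0.05 and 0 by DESeq2 or limma (0.307% of all genes). From 1 h to 6 h, C4b, C3ar1 and C5ar1 rose (14.5% of all genes were called higher). From 6 h to 24 h, C1qc and C3ar1 rose (14.2%) and C3 and Serping1 fell (13.7%). From 24 h to 72 h all 9 rose, against 24.4% of all genes.

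C1q is built from the A, B and C chains encoded by C1qa, C1qb and C1qc. C1qa stood at 67.9, 77.2 and 78.9 CPM in the sham libraries, at 64.7, 73.9 and 70.2 at 6 h, at 90.6, 107 and 70.9 at 24 h and at 575, 449 and 591 at 72 h. The 24 h libraries overlapped sham and the 72 h libraries were far above. Its log2 fold change against sham was 0.26 (SE 0.13, adjusted p = 0.122) at 24 h and 2.85 (SE 0.14, adjusted p = 1.62e-11) at 72 h, a 7.21-fold increase.

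For C1qb, which encodes the B chain, the level was 44.2, 52.6 and 55.7 CPM in sham, 61.3, 67 and 57.9 at 6 h, 70.4, 86.2 and 56.4 at 24 h and 572, 434 and 582 at 72 h. Every 6 h and 24 h library lay above every sham library, by a narrow margin for the lowest of them. The log2 fold change was 0.29 (SE 0.14, adjusted p = 0.141) at 6 h, 0.48 (SE 0.14, adjusted p = 0.0106) at 24 h and 3.38 (SE 0.15, adjusted p = 6.02e-12) at 72 h. The 24 h call was lost without sham replicate 1 or 24 h replicate 2 (adjusted p up to 0.0797). C1qa and C1qc, not called at 24 h with all libraries, were called without 24 h replicate 3 (log2 fold changes 0.41, adjusted p = 0.0162, and 0.33, adjusted p = 0.0444) and under scaling by library totals (0.46 and 0.40). The 24 h calls therefore do not show that the 3 chains differ in timing. The ratios of C1qa and of C1qc to C1qb, given below, were under those of sham from 6 h on. At 72 h the fold was 10.4.

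C1qc measured 59.9, 66 and 67.8 CPM in sham, 57.6, 58.5 and 52.8 at 6 h, 76.3, 85.9 and 60.2 at 24 h and 553, 414 and 512 at 72 h. Its 6 h libraries all lay under sham, without a call (log2 fold change -0.20, SE 0.13, adjusted p = 0.272). It rose from 6 h to 24 h by a log2 fold change of 0.40 (SE 0.13, adjusted p = 0.0284), a call lost without 6 h replicate 1, 6 h replicate 3 or 24 h replicate 2 (adjusted p up to 0.154). At 72 h it was 7.63-fold above sham (log2 fold change 2.93, SE 0.14, adjusted p = 8.38e-12). In all 3 chains replicate 2 was the lowest of the 72 h libraries and the highest of the 24 h libraries.

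Since the chains are assembled into one protein, their ratio was followed, as counts per base of exon within each library. The ratio of C1qa to C1qb was 1.61, 1.54 and 1.48 in sham, 1.10, 1.16 and 1.27 at 6 h, 1.35, 1.30 and 1.32 at 24 h and 1.05, 1.08 and 1.06 at 72 h. All 9 libraries from 6 h on were under all 3 sham libraries, while those of 10 min and 1 h overlapped sham. C1qc to C1qb went the same way, with 0.719 ± 0.0398 (SD, n = 3) in sham, 0.512 ± 0.0187 at 6 h, then 0.591 ± 0.0266 at 24 h, then 0.526 ± 0.0264 at 72 h. C1qa to C1qc was 2.15 ± 0.0362 in sham and overlapped it at 10 min, 6 h and 72 h (2.03 ± 0.108). At 1 h (2.26 to 2.35) and 24 h (2.19 to 2.32) all libraries lay slightly above sham. With 3 libraries a group, no test was made on the ratios, which do not depend on library scaling. Their size depends on the exon lengths used, 1931 bases for C1qc over all its annotated exons. Each length is the same in every library, so differences between groups do not depend on it.

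**Figure D2:**
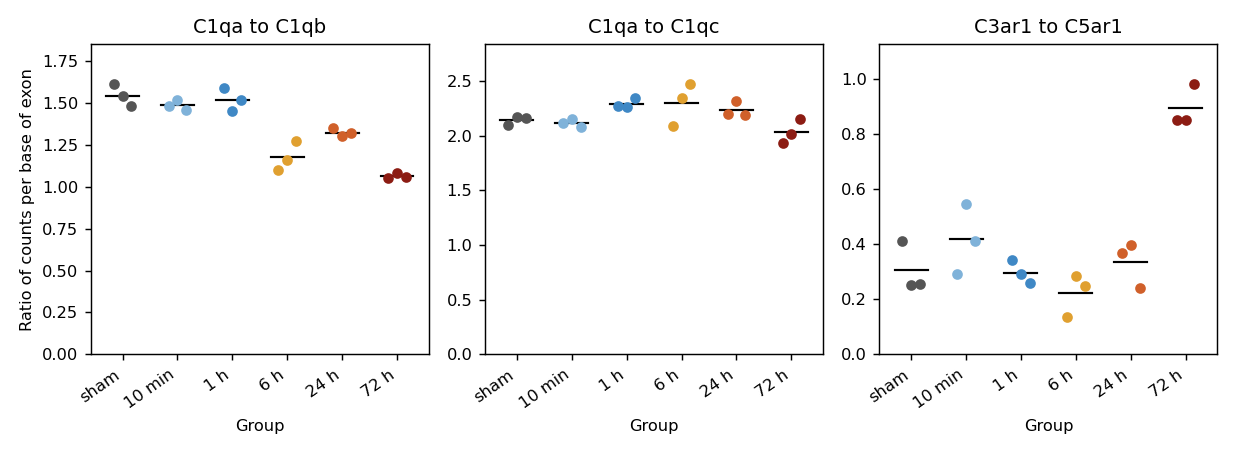
Ratio of counts per base of exon between pairs of complement genes in each library (points, 3 mice per group; lines are group means; linear axes from 0). C1qa to C1qb is lower than in sham from 6 h on, C1qa to C1qc overlaps sham at 72 h and lies slightly above it at 1 h and 24 h, and C3ar1 to C5ar1 is highest at 72 h.

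Macrophage and monocyte markers moved with the C1q chains at 72 h. The sum of 8 markers (Cd68, Csf1r, Adgre1, Ly6c2, Ccr2, Lyz2, Mrc1 and Fcgr1) ran from 202 to 232 CPM in sham, 194 to 298 at 6 h, 533 to 677 at 24 h and 2850 to 3640 at 72 h, and none was at 0 in a whole group. At 24 h and at 72 h, 8 of 8 were called higher than sham, as were 23.7% and 34.2% of all genes. The summed C1q level was on average 88.8% of that marker sum in sham, 70.9% at 10 min, 85.5% at 1 h, 76.1% at 6 h, 41.3% at 24 h and 48.9% at 72 h. The shares of 24 h (44.5%, 51.6% and 27.7%) and 72 h (54.7%, 45.5% and 46.3%) were all under the lowest sham share of 85.0%, and so were those of 10 min (78.6%, 64.4% and 69.5%). The part of these cells in the C1q levels was not tested.

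C3 is the protein on which all complement pathways meet. C3 stood at 96.2, 118 and 108 CPM in sham, at 181, 168 and 115 at 6 h, at 108, 87.2 and 111 at 24 h and at 322, 216 and 170 at 72 h. At 6 h replicates 1 and 2 were above sham and replicate 3 was within it. The log2 fold change was 0.53 at 6 h (SE 0.19, adjusted p = 0.0486), -0.07 at 24 h (SE 0.19, adjusted p = 0.79) and 1.14 at 72 h (SE 0.19, adjusted p = 5.92e-05, 2.20-fold). The 6 h call was lost when any of 14 of the 18 libraries was left out, that is any but 6 h replicate 3, 24 h replicate 2 and 72 h replicates 1 and 3 (adjusted p up to 0.203). The fall of C3 from 6 h to 24 h (log2 fold change -0.60, SE 0.19, adjusted p = 0.0274) was lost without 6 h replicate 1 or 2 or 24 h replicate 1 or 2 (adjusted p up to 0.11). Both of these C3 calls were also lost in 5 of 9 other settings, among them scaling by library totals, under which the fall was -0.30 (adjusted p = 0.19).

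C4b encodes mouse complement C4, the substrate of the classical and lectin proteases. It measured 8.39, 9.95 and 10.7 CPM in sham, 19.1, 19.5 and 26.7 at 6 h, 16.3, 12.9 and 17.1 at 24 h and 50.3, 34.4 and 28 at 72 h. From 6 h on, every library was above every sham library, and the 24 h libraries lay under the 6 h libraries. C4b rose 2.25-fold at 6 h (log2 fold change 1.17, SE 0.21, adjusted p = 0.000521) and 3.88-fold at 72 h (1.96, SE 0.20, adjusted p = 1.97e-07). At 24 h its log2 fold change was 0.67 (SE 0.21, adjusted p = 0.0138), a call lost without sham replicate 1 or 24 h replicate 3 (adjusted p up to 0.0626). The drop from 6 h to 24 h was not called (-0.50, SE 0.20, adjusted p = 0.071). C4b shares 16.5% of its 100-base exon windows with its near-identical neighbour C4a, so reads could be split between them; C4a itself held 2 to 13 counts a library.

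Replicate 1 was the highest 72 h library for C3, C4b and Serping1. Per base of exon, C3 to C4b was 12.3 ± 1.02 in sham, 8.28 ± 3.08 at 6 h, 7.34 ± 0.121 at 24 h and 6.93 ± 0.175 at 72 h (SD, n = 3). All libraries of 6 h (highest 10.5), 24 h and 72 h were under those of sham (lowest 11.2). Fibroblast markers moved with C3 and C4b at 72 h: 7 of 7 were called higher, against 34.2% of all genes. The sum of these markers ran from 696 to 748 CPM in sham and from 7990 to 10300 at 72 h, with none at 0. At 6 h, when C4b rose, that sum ran from 587 to 728. Their part in the results was not tested. Of 5 hepatocyte markers listed, 4 had values, and their sum was at most 1.28 CPM in any library and at most 0.0318 at 72 h.

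Cfb encodes factor B, the protease of the alternative pathway convertase, and had few counts in every library. Its counts were 1, 0 and 3 in sham, 2, 1 and 4 at 6 h, 4, 1 and 2 at 24 h and 31, 28 and 13 at 72 h. Only the 72 h libraries lay above all others. Against a floor of 3 counts per sham library, its 72 h level of 0.747 CPM was at least 5.09-fold higher (adjusted p = 0.000239). Of its exon bases, 79.5% lie in exons of the predicted gene Gm20547 on the same strand. How shared reads were counted is not stated, so the Cfb values are uncertain.

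Serping1 encodes C1 inhibitor, which blocks the proteases that C1q and the lectins activate, and it was the only one of the 9 called lower than sham at any time. Its level was 90.9, 85.5 and 100 CPM in sham, 108, 104 and 105 at 6 h, 68.4, 56.1 and 54.5 at 24 h and 145, 116 and 130 at 72 h. The 6 h libraries stood just above sham, the 24 h libraries under every other library, and the 72 h libraries above every other library. The log2 fold change against sham was 0.20 (SE 0.10, adjusted p = 0.141) at 6 h, -0.63 (SE 0.10, adjusted p = 0.000101) at 24 h and 0.50 (SE 0.10, adjusted p = 0.000217) at 72 h. From 6 h to 24 h Serping1 fell by 0.83 on the log2 scale (SE 0.10, adjusted p = 2.48e-05), and from 24 h to 72 h it rose by 1.13 (SE 0.10, adjusted p = 5.24e-08). These calls held without any 1 library. At 72 h its rise depended in size on scaling, with a log2 fold change of 1.08 when libraries were scaled by their totals alone.

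Of 5 endothelial markers, 3 were called lower at 24 h as well. Their sum, with none at 0, ran from 1090 to 1220 CPM in sham and from 814 to 968 at 24 h. It was no higher at 72 h, at 655 to 876. The cardiomyocyte sum ran from 19700 to 29800 at 24 h, when 4 of 6 markers were called lower. Of 7 fibroblast markers, 4 were higher and 2 lower at 24 h, and all 7 were higher at 72 h. At 24 h, 23.7% of all genes were called higher and 20.2% lower, and the median log2 fold change of the 7 markers was 0.70. The 2 lower markers, Dcn and Tcf21, were named after their values were seen. These 2 are a minority of the list and do not stand for it: at 24 h, 4 of the 7 markers went the other way from Serping1. Dcn stood at 412, 237 and 513 CPM and Tcf21 at 12.6, 9.24 and 30.9 CPM in sham, 24 h and 72 h. The 24 h call of Tcf21 was lost without sham replicate 1 (adjusted p = 0.0577). The part of these cells in the Serping1 levels was not tested.

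C3ar1, the receptor for the C3 fragment, had the highest fold change of the 9 with a countable sham level. It measured 5.46, 4.87 and 4.84 CPM in sham, 9.05, 9.18 and 7.19 at 6 h, 19.2, 19 and 32.1 at 24 h and 117, 136 and 137 at 72 h. From 6 h on the groups stood one above the other without overlap. C3ar1 rose 1.68-fold at 6 h (log2 fold change 0.75, SE 0.20, adjusted p = 0.0107), 4.62-fold at 24 h (2.21, SE 0.19, adjusted p = 5.51e-07) and 25.7-fold at 72 h (4.68, SE 0.20, adjusted p = 6.02e-12). Without 24 h replicate 3 the 24 h mean was 19.1 CPM in place of 23.4. Each of the steps from 1 h to 72 h was also called, the last by a log2 fold change of 2.48 (SE 0.18, adjusted p = 6.1e-09).

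C5ar1, the receptor for the C5 fragment, measured 7.93, 11.5 and 11.3 CPM in sham, 39.6, 19.3 and 17.2 at 6 h, 31.2, 28.7 and 79.3 at 24 h and 82.1, 95.1 and 83.1 at 72 h. All libraries from 6 h on were above sham, with 6 h replicate 1 and 24 h replicate 3 far above their groups. C5ar1 rose 2.47-fold at 6 h (log2 fold change 1.30, SE 0.38, adjusted p = 0.0191), 4.52-fold at 24 h (2.17, SE 0.38, adjusted p = 0.000466) and 8.48-fold at 72 h (3.08, SE 0.38, adjusted p = 6.06e-06). The 6 h call was lost without sham replicate 1 or 6 h replicate 1 (adjusted p up to 0.116), and the call against 1 h without any 1 h replicate or 6 h replicate 1 (up to 0.101). Without 24 h replicate 3, the 24 h mean was 29.9 CPM in place of 46.4.

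The C5ar1 step from 24 h to 72 h was a log2 fold change of 0.91 (SE 0.35, adjusted p = 0.0418). It was 1.53 without 24 h replicate 3, and the call was lost when any of 13 other libraries was left out, that is any but sham replicate 1 and the 6 h replicates (adjusted p up to 0.171). Per base of exon, C3ar1 to C5ar1 was 0.411, 0.254 and 0.256 in sham, 0.137, 0.284 and 0.249 at 6 h, 0.367, 0.396 and 0.242 at 24 h and 0.853, 0.853 and 0.981 at 72 h. Only the 72 h libraries lay above all of the others.

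**Figure D3:**
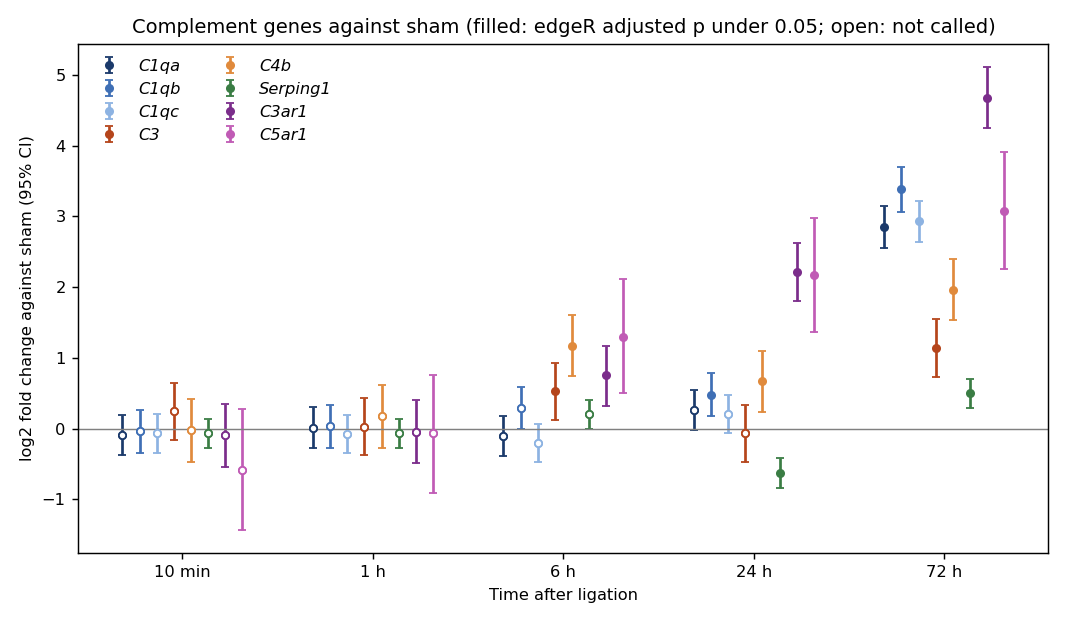
Log2 fold change against sham at each time, with 95% confidence intervals from edgeR, for the 8 complement genes with countable sham levels (Cfb is left out); filled points passed an adjusted p under 0.05. C3ar1 and C5ar1 rise from 6 h on, Serping1 is under 0 at 24 h, and all 8 are above 0 at 72 h.

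The libraries that stood apart for C5ar1 were also those with the most neutrophil marker RNA. The sum of 6 markers (S100a8, S100a9, Csf3r, Cxcr2, Retnlg and Mmp8) was 2.31 to 3.63 CPM in sham. It was 757, 268 and 103 at 6 h, 157, 36.1 and 663 at 24 h and 51.3, 57.4 and 61.4 at 72 h, and no marker was at 0 in a whole group. C5ar1 was highest in the library with the highest neutrophil sum at both 6 h and 24 h, whereas at 72 h it was higher still beside a smaller sum. For C3ar1, 6 h replicate 2 at 9.18 CPM was as high as replicate 1 at 9.05, but at 24 h replicate 3 was highest at 32.1 against 19.2 and 19. The same 24 h replicate 3 also had the highest macrophage and monocyte sum of its group, 677 CPM. The part of neutrophils or macrophages in either receptor was not tested.

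Levels of different genes were compared by FPKM (fragments per kilobase of exon, scaled to the library total), as group means over 3 mice. In sham the order was C1qa at 66.7 ± 6.5, C1qb at 43.4 ± 5.93, Serping1 at 36.8 ± 4.08, C1qc at 31 ± 2.62 and C3 at 19.3 ± 1.93 (SD). Below them came C5ar1 at 3.69 ± 0.754, C4b at 1.58 ± 0.222, C3ar1 at 1.09 ± 0.0678 and Cfb at 0.0205 ± 0.0229. At 72 h the C1q chains led at 722 ± 111, 678 ± 111 and 355 ± 50.6 FPKM for C1qa, C1qb and C1qc. Serping1 followed at 77.9 ± 7.89, C3 at 63.6 ± 19.3, C5ar1 at 47 ± 4.03, C3ar1 at 42.1 ± 4.51, C4b at 9.13 ± 2.55 and Cfb at 0.366 ± 0.137. The place of Cfb in both orders is uncertain, since how reads shared with Gm20547 were counted is not stated. FPKM divides by all annotated exon bases of a gene, 1931 for C1qc and 2325 for Serping1. Their longest coding transcripts were shorter, with 1104 and 1669 windows of 100 bases. For C1qb these values were closer, 1088 bases and 989 windows. The places of C1qc and Serping1 therefore depend on the length used. In sham CPM, C1qc at 64.6 was above C1qb at 50.8. In sham, C1qb and Serping1, and Serping1 and C1qc, were neighbours in that order that differed by less than the sum of their SDs. At 72 h this held for C1qa and C1qb, Serping1 and C3, C3 and C5ar1, and C5ar1 and C3ar1.

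Of 48 other complement genes listed, 43 had values and 31 were tested. At 10 min and at 1 h 0 of 31 were called by edgeR, DESeq2 or limma, with 2 and 1 at an unadjusted p under 0.05. At 6 h, 9 were higher and 3 lower, where 16.3% and 12.2% of all genes were. At 24 h 8 were higher and 11 lower, against 23.7% and 20.2% of all genes, so the count of higher calls was near the background. At 72 h 16 were higher and 8 lower, against 34.2% and 32.2%. Their median log2 fold change was 0.11, -0.10 and 0.30 at those times.

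Among 9 tested genes of the classical and lectin start, 0 were called at 6 h, 1 was higher and 4 were lower at 24 h, and 5 were higher and 1 lower at 72 h. Of all genes tested, 23.7% were called higher and 20.2% lower at 24 h, and 34.2% higher and 32.2% lower at 72 h. C1ra and C1s1, the proteases that ride on C1q, were lower at 24 h (log2 fold changes -0.53, SE 0.10, and -0.49, SE 0.10) and higher at 72 h (0.73 and 0.49, SE 0.10 each); both were named after their values were seen. Masp1, a lectin pathway protease, rose at 24 h, from 9.91 ± 0.677 to 25.2 ± 6 CPM (SD, n = 3; log2 fold change 1.34, SE 0.16, adjusted p = 9.07e-06). The ficolin Fcna was higher at 72 h (1.45, SE 0.33, adjusted p = 0.000801), and the collectin Colec11 was lower there (-1.14, SE 0.18, adjusted p = 2.65e-05).

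In the alternative loop 1 of 2 tested genes was called, at 24 h and 72 h and, narrowly, at 6 h. This was Cfp, properdin, which stabilises the alternative convertase. Of all genes tested, 16.3% were called higher and 12.2% lower at 6 h. These shares were 23.7% and 20.2% at 24 h and 34.2% and 32.2% at 72 h, so counts among 2 genes say little. The level of Cfp is given next. Its level was 6.11 ± 0.671 CPM in sham, 37 ± 10.9 at 24 h and 98.9 ± 7.2 at 72 h (SD, n = 3), and it rose most by 72 h (log2 fold change 4.01, SE 0.24, adjusted p = 6.06e-10). The 6 h call (0.66, SE 0.24, adjusted p = 0.0469) was lost under scaling by library totals (0.55, adjusted p = 0.0832) and without any of 13 of the 18 libraries, and the value was 0.38 without 6 h replicate 1 (adjusted p = 0.273). Of 2 tested terminal genes, C7 was higher at 6 h (1.10, SE 0.30, adjusted p = 0.0124, lost without sham replicate 1 or 6 h replicate 2 with adjusted p up to 0.0561) and C8g was lower at 24 h (-1.23, SE 0.27, adjusted p = 0.00145) and at 72 h (-0.96, SE 0.26, adjusted p = 0.00309). The 72 h call of C8g was lost when libraries were scaled by their totals alone (adjusted p = 0.219).

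All 5 tested soluble regulators were called at each time from 6 h on, 3 of them higher and 2 lower by 72 h. Of all genes, 16.3% were called higher and 12.2% lower at 6 h, and 23.7% and 20.2% at 24 h. At 72 h, 34.2% of all genes were called higher and 32.2% lower. Cfi, the protease that inactivates C3b and C4b proteins, had 0 counts in all 3 sham libraries and 89 to 100 at 72 h, at least 20.1-fold higher against a floor of 3 counts per sham library. Vtn, vitronectin, stood at 35.5 ± 1.36 CPM in sham and fell to 11.9 ± 1.3 by 72 h (log2 scale -1.58, SE 0.16, adjusted p = 9.12e-08). Cpn2, the regulatory subunit of carboxypeptidase N, which trims anaphylatoxins, was lower as well (-1.48, SE 0.32, adjusted p = 0.000534).

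Of 6 tested membrane regulators, which protect host cells from complement, 1 was higher and 3 were lower at 72 h, when 34.2% of all genes were called higher and 32.2% lower. Cd59a, a blocker of the membrane attack complex, was at 105 ± 5.01 CPM in sham and fell to 42.6 ± 5.5 (on the log2 scale -1.30, SE 0.14, adjusted p = 1.45e-07). Its paralog Cd59b was lower too (-0.98, SE 0.22, adjusted p = 0.000618), a call lost under scaling by totals, and the counting of reads common to both is not stated. Cr1l, the rodent regulator Crry, had a log2 fold change of -0.39 (SE 0.09, adjusted p = 0.00118), which turned to 0.20 without a call under scaling by totals, so its direction is uncertain. Of 6 cardiomyocyte markers, 6 were called lower at 72 h, and their part was not tested.

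Among 7 tested receptors, 4 were higher at 6 h and at 24 h, and 6 were higher and 1 lower at 72 h. Of all genes tested, 16.3% were called higher at 6 h and 23.7% at 24 h. At 72 h, 34.2% of all genes were called higher and 32.2% lower. Itgax, a subunit of complement receptor 4, had 0.471 ± 0.124 CPM in sham and rose to 15.7 ± 2.68 by 72 h (log2 fold change 5.04, SE 0.42, adjusted p = 1.64e-08). Itgam, the matching subunit of complement receptor 3, had a log2 fold change of 4.71 at 24 h (SE 0.60, adjusted p = 5.94e-05), with libraries from 23.3 to 106 CPM against 1.82 to 2.13 in sham. Without 24 h replicate 3, the highest, its 24 h mean was 26.3 CPM in place of 53 and the log2 fold change 3.70 (adjusted p = 2.46e-06). C1qbp, a mitochondrial protein first found as a C1q binder, fell (-1.19, SE 0.10, adjusted p = 1.09e-08).

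**Figure D4:**
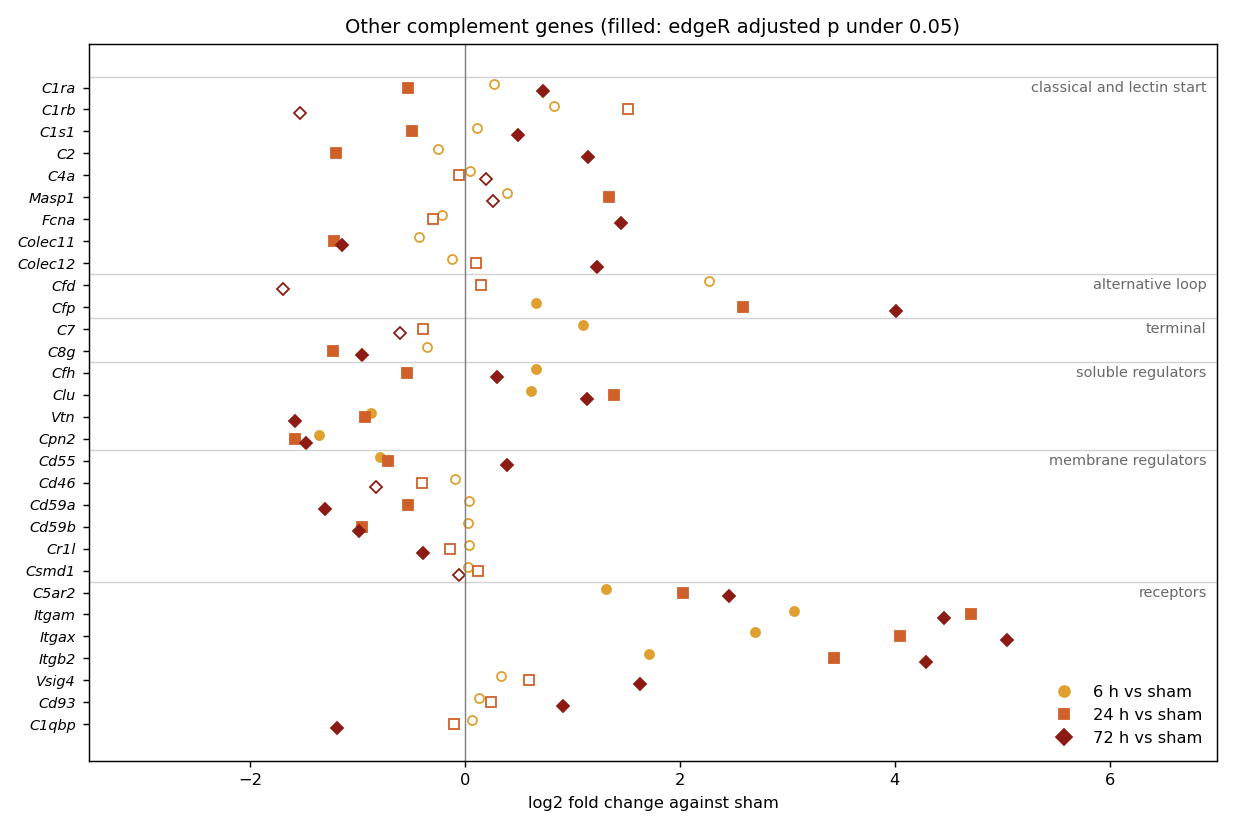
Log2 fold change against sham at 6 h (circles), 24 h (squares) and 72 h (diamonds) for 30 of the 31 tested other complement genes, by role; Cfi is left out because it had 0 counts in sham, and filled symbols passed an edgeR adjusted p under 0.05. The integrin receptors and Cfp lie far to the right, and Vtn, Cpn2, Colec11, Cd59a and C1qbp lie to the left at 72 h.

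Across the 18 libraries, Pearson correlations of log2 CPM (prior count 2) were 0.99 to 1.00 between the C1q chains, 0.93 between C3ar1 and C5ar1 and 0.90 to 0.92 between C3ar1 and the C1q chains. C4b stood nearer to C3ar1, C5ar1 and Cfb (0.84 each) than to C3 (0.78). Serping1 had its highest value with C3 (0.76) and its lowest with C3ar1 and C5ar1 (0.31 and 0.19). These values describe 18 points that share 6 groups. By the same measure the genes outside the complement lists nearest to C1qa were Aoah (r = 0.991), Arhgap19 (0.989) and Gpx7 (0.986). Nearest to C3 were Slc39a8 (0.887), Abhd2 (0.865) and Abca1 (0.864), and nearest to C4b were Klhl29 (0.939), Rasa3 (0.932) and Lox (0.932). For C5ar1 they were Tlr13 (0.989), Arpc2 (0.988) and Milr1 (0.985), and Tlr13 had a 24 h level of 18 ± 13.8 CPM, as widely spread as that of C5ar1 at 46.4 ± 28.5 (SD, n = 3).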

How the data were processed

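Poly(A)-selected RNA of 18 mice was sequenced, 1 library per mouse. Per the submitters' processing notes, cutadapt 1.18, HISAT2 2.1.0, featureCounts and the build mm10 were used; their settings, the annotation and any use of strand are not given in the sources used here. The authors deposited whole-number read counts for 30583 Ensembl genes and FPKM values made from those counts; in FPKM, the 6 h replicates 2 and 3 hold each other's library, so only group means of FPKM are given. Symbols and coordinates come from GENCODE M21 (30489 IDs matched, 94 did not).

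The counts were tested with edgeR 4.0.16 under R 4.3.3: filterByExpr, TMM, a robust quasi-likelihood fit with 1 mean per group over all 18 libraries, two-sided tests, and Benjamini-Hochberg adjustment over 16311 genes. The fit was also run on counts simulated from its own estimates of spread. Such a run cannot show how the fit handles libraries that stand apart, and its outcome is not used here. Replicates are separate mice per the labels. The precision is limited by 3 mice a group and, for Cfb and Cfi, by counts near 0; reads carry no molecular identifiers, so floors cover counting error only. Alternatives were RLE and library-total scaling, other filters, DESeq2 1.42.0, limma 3.58.1 on log2(FPKM + 1) and log2(FPKM + 0.1), the replicate number as a block, fits of only the libraries compared, and leaving out each library.

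All 9 members are described. Of the other complement genes, the 2 called genes with the largest change in each role group and every gene called lower at 72 h are named, with the 3 genes nearest to C1qa, C3, C4b and C5ar1 by correlation (mean of at least 50 counts). Members and lists were chosen with earlier results of these data known.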

Additional observations from a re-analysis of the deposited data

Results flagged for a closer look

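Serping1 went in opposite directions at 24 h and at 72 h. Against the same sham libraries its log2 fold change was -0.63 (SE 0.10) at 24 h, lower in 3 of 3 mice, and 0.50 (SE 0.10) at 72 h, higher in 3 of 3 mice. The difference between the 2 times was tested directly and came to 1.13 on the log2 scale (SE 0.10, edgeR adjusted p = 5.24e-08). Over the other settings tried, and with each library left out, that difference stayed between 1.04 and 1.52.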

How the results depend on the processing

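The 72 h calls against sham held for all 9 members under the settings tried and with any 1 library left out, except that a minimum of 10 counts in every library leaves Cfb untested. At 6 h against sham 4 members were called, but 2 by limma on log2(FPKM + 1) and 2 to 4 with a library left out (2 without sham replicate 1 or 6 h replicate 1). At 24 h against sham 5 were called, 3 to 6 with a library left out (3 without sham replicate 1), and 7 by either limma setting or under scaling by library totals. From 1 h to 6 h, 3 became 5 with DESeq2 and 5 when only the libraries compared were fitted, which also turned 4 into 2 from 6 h to 24 h. No called member changed sign. The cause was not tested.

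Same-numbered replicates showed little sign of deviating together: 4 of 45 pairs had a correlation over 0.1. The mean was 0.0156, against -0.0075 for pairs with different numbers. Of 18 libraries, 9 correlated best with their own number out of 3 numbers. Whether 9 is more than by chance was not tested. With a replicate block, C3 at 6 h had a log2 fold change of 0.51 (edgeR adjusted p = 0.06), so that 3 members were called there; the counts of called members were unchanged in the other comparisons.

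Scaling by library totals moved the all-gene median by -0.11 at 6 h. For 24 h this shift was 0.19 and for 72 h 0.58. Among called genes, it took the higher ones from 57.2% to 40.6% (6 h), from 54.0% to 75.5% (24 h) and from 51.4% to 79.9% (72 h). Among all genes, calls at 10 min numbered 12, but 26 without a filter, 60 with DESeq2, 2 and 4 with limma and 360 when only the libraries compared were fitted. At 1 h they numbered 48, against 95 with DESeq2 and 190 with only the libraries compared, and from 6 h to 24 h 4541, against 6880 under scaling by totals and 1024 with only the libraries compared.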
